A study of Mus musculus with 8 samples.

Results

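The genes described here encode chromatin remodellers and histone modifiers, the enzymes and readers that move nucleosomes and write, remove or bind marks on histones. They were taken by name from the array's platform annotation: symbols of the Smarc, Chd, Hdac, Cbx, Ezh, Kat, Kdm and Kmt families, with Suz12 and Eed. Of 65 matching symbols, 3 genes on the sex chromosomes (Kdm5c, Kdm5d and Kdm6a) were left out by the rule, which gave 62 genes of 16593 on the array. Hdac6, Hdac8 and Smarca1, which lie on the X chromosome, were kept. The rule itself uses names and no measured value. Each gene is represented by the brightest of its probes, by the mean over the 8 arrays. Total RNA of cerebellum at embryonic day 17.5 was hybridised to Illumina BeadArrays, from mice in 2 groups, 4 WT and 4 CKO animals, an array for each animal. All animals carried Pals1 fl/fl, a floxed allele of the apical polarity gene Pals1 (Mpp5). WT animals were Cre- and CKO animals were Cre+ for hGFAP-Cre, a transgene that removes the gene from most cerebellar neurons and glia, so cells outside those lineages keep Pals1 in CKO.

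DNA in the nucleus is wrapped on histones, and gene activity depends on how tightly it is packed. Remodellers of the SWI/SNF (BAF), ISWI and CHD families use ATP to slide or evict nucleosomes. Acetyltransferases (Kat) and deacetylases (Hdac), and lysine methyltransferases (Kmt, Ezh) and demethylases (Kdm), set the marks that proteins such as the Cbx readers bind. In the developing nervous system progenitors and neurons are known to use different subunits of the same complexes: progenitors use the actin-like subunit Actl6a and the protein Ss18 in BAF, neurons use Actl6b and Ss18l1, and the Polycomb methyltransferase Ezh2 is abundant in dividing cells.

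Median raw intensities of the arrays lay between 118.7 and 133.5, and the correlation of log2 levels between arrays, across genes, was 0.991 to 0.997 in the same group and 0.983 to 0.990 otherwise. Mpp5, the deleted gene, had log2 levels of 7.09, 7.07, 7.09 and 7.01 in WT against 6.28, 6.19, 6.25 and 6.08 in CKO, in order of replicate number as in all lists of array values below. Its level fell by 0.87 on the log2 scale (SE 0.0672, limma adjusted p = 8.47e-06), and an exact two-sided permutation test over 70 assignments gave p = 0.0286, the smallest they can give. The CKO mean of 6.20 lay below the brightness filter of 6.26, so the size of the loss is not well measured. Over the alternatives the change lay between -1.34 and -0.42. A second Mpp5 probe was below the filter (6.10 in WT, 6.13 in CKO) and not tested. Markers of several cell types moved with genotype. Of the 7 tested markers of dividing cells all 7 fell in CKO, with a mean log2 level of 9.76 to 9.98 in WT and 8.72 to 9.37 in CKO, where CKO.3 was highest. Of 8 tested markers of granule cell progenitors 7 fell (mean level 10.68 to 10.87 in WT, 9.68 to 10.07 in CKO), and of 8 tested markers of postmitotic granule neurons 6 fell (9.67 to 9.79 in WT, 9.19 to 9.31 in CKO). Among 10 tested Purkinje cell markers 5 rose and 2 fell (10.26 to 10.43 in WT, 10.54 to 10.62 in CKO), and among 14 tested markers of microglia 11 rose (7.45 to 7.54 in WT, 7.84 to 8.03 in CKO). The defining progenitor genes Atoh1, Gli1 and Mycn and the Purkinje gene Calb1 were below the brightness filter and not tested. Other cells present were marked by lists that mostly did not pass: 1 of 9 meningeal markers fell and 0 rose, with the mean level 9.05 in CKO.3 against 7.38 to 7.64 in the other CKO arrays, and 2 of 7 choroid plexus markers fell and 0 rose. Of 11 endothelial markers 4 rose and 0 fell, of 9 markers of Bergmann and radial glia 1 rose and 1 fell, and of 3 tested blood genes 0 passed. In whole tissue, fewer cells of a type and less RNA per cell cannot be told apart, and the part of cell makeup in the changes below was not tested. Xist, transcribed from the inactive X, read 10.10, 9.97, 6.83 and 9.71 in WT against 6.60 to 6.77 in CKO, so that WT.3 was the only WT array with the low level of the CKO arrays.

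A minority of the chromatin genes changed, and falls outnumbered rises. Of the 62 genes 60 were bright enough to be tested, and 16 passed the threshold of 0.05 on the limma p-value adjusted over all 12912 tested genes: 12 fell and 4 rose in CKO. That is 26.7% of the 60, against 17.8% of all tested genes. Falls made up 20% against 8.64% of all genes, and rises 6.67% against 9.15%. The excess in calls depended on the brightness filter. With the filter at the median probe, 28.6% of 56 chromatin genes were called, against 27.2% of all 8965 genes then tested. Of the chromatin genes 12 fell and 4 rose there, and of all genes 1171 fell and 1264 rose. The groups did not overlap for 18 of the 60 (14 lower and 4 higher in CKO), or 30.0% against 21.2% of all tested genes. The median change over the 60 was -0.04 on the log2 scale, against 0.0075 over all tested genes, and the median absolute change was 0.16 against 0.11. The genes that fell were Ezh2, Smarcd2, Kmt5a, Chd4, Kdm8, Cbx2, Kdm3a, Kmt5c, Kdm6b, Suz12, Kat14 and Hdac10. Those that rose were Chd5, Hdac11, Smarca1 and Kdm1b. Changes were modest, with only Ezh2 and Smarcd2 past 1.5-fold among the genes called. Of the 44 tested genes that did not pass, 25 changed by less than 0.1 in either direction. Cbx6 (6.14 in WT, 6.19 in CKO) and Chd6 (5.97 and 6.04) were below the brightness filter of 6.26 and not tested.

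**Figure D1:**
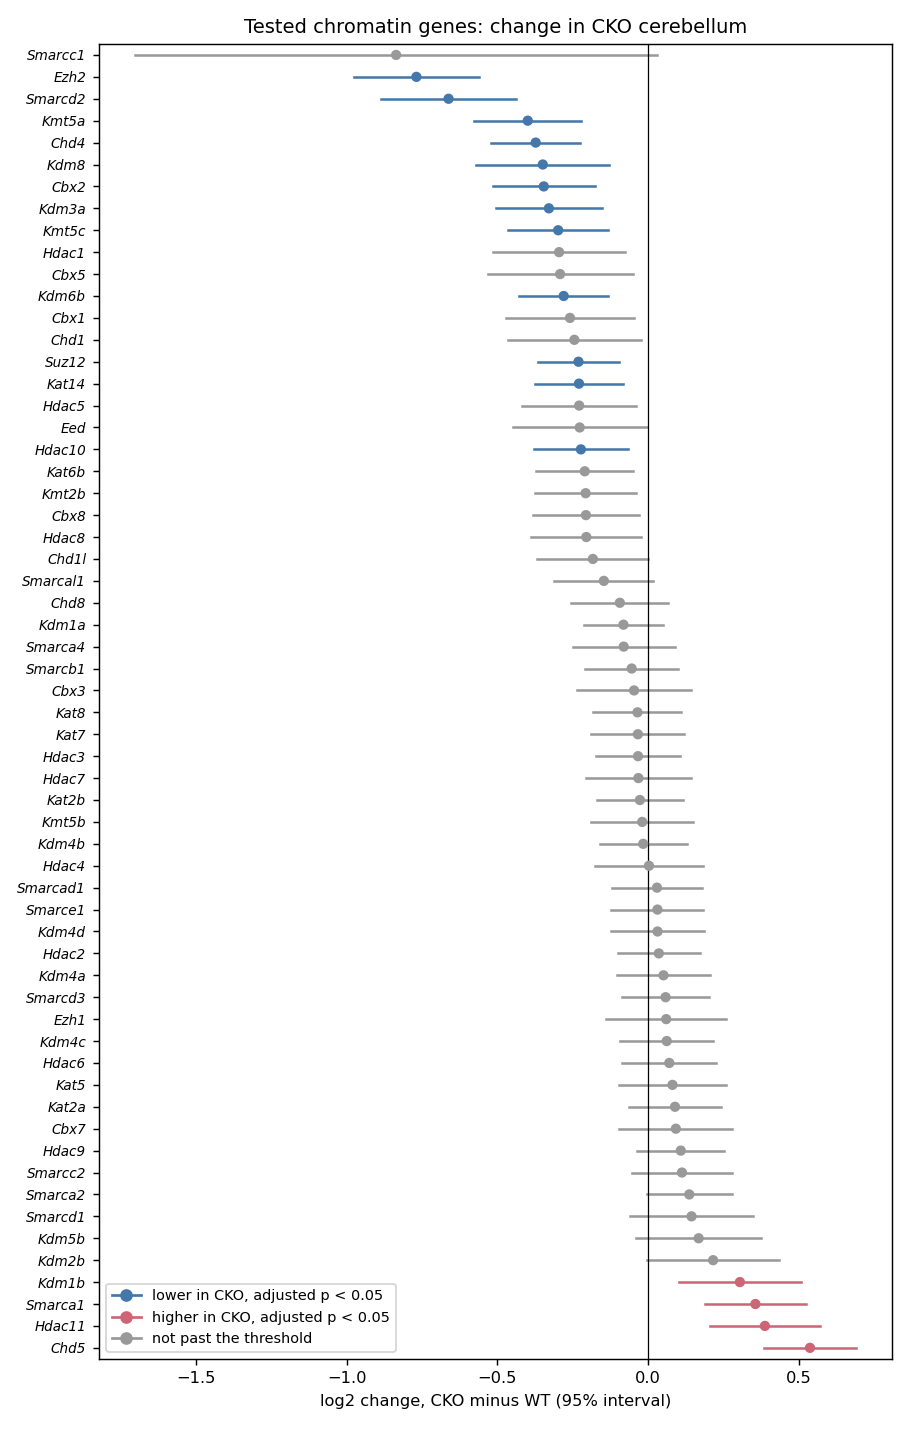
Log2 change in CKO relative to WT (x axis) for each of the 60 tested chromatin genes (y axis), with the 95% interval of the limma fit on 4 arrays per group. The 12 genes in blue fell and the 4 in red rose past the adjusted threshold. Chd5 has the largest rise at 0.54, and the widest interval belongs to Smarcc1, which did not pass.

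The main enzyme of Polycomb repressive complex 2 (PRC2) was lower in CKO. PRC2 methylates lysine 27 of histone H3; Ezh2 and its paralogue Ezh1 are alternative catalytic subunits, and Suz12 and Eed are the core partners. Ezh2 levels were 10.26, 10.33, 10.34 and 10.26 in WT and 9.63, 9.60, 9.67 and 9.21 in CKO. All CKO arrays lay below all WT arrays, and CKO.4 lay lowest. Ezh2 fell by 0.77 (SE 0.0957, 95% interval -0.98 to -0.56, adjusted p = 2.54e-04), a 1.70-fold difference. A second, dimmer Ezh2 probe also fell, by 0.27 (adjusted p = 0.0374 over all probes), while the third was below the brightness filter. Over all alternatives the adjusted p of Ezh2 lay between 2.11e-05 and 0.0544. Suz12 levels were 11.79, 11.77, 11.75 and 11.86 in WT and 11.60, 11.57, 11.56 and 11.52 in CKO. The groups did not overlap, and Suz12 fell by 0.23 (SE 0.0623, adjusted p = 0.0216), but its call was lost without WT.4 or CKO.4 (adjusted p of 0.0567 to 0.0623, and 0.0121 to 0.365 under all alternatives). Eed, at -0.23 (SE 0.103), did not pass (adjusted p = 0.158), with CKO arrays more spread (SD 0.234) than WT arrays (SD 0.0793, n = 4 each), and it passed without CKO.4 (adjusted p = 0.0329, and 0.0329 to 0.650 under all alternatives). Ezh1 was dim in both groups (6.91 and 6.97) with a change of 0.06 (95% interval -0.14 to 0.26).

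The sequences just upstream of the gene starts are shown for Ezh2, which fell, and for the paralogues Chd4, which fell, and Chd5, which rose. Suz12 and the methyltransferase gene Kmt5c were picked because they fell and also hold the letters TTTNNCGC, described below. The printed stretches therefore do not represent the genes that fell. They are the 250 bases before the first listed start in RefSeq on GRCm38.p6, 5′ to 3′ on the gene's strand, and they come from the reference, not from these animals. Capitals mark the letters CCAAT, the box bound by NF-Y, and TTTNNCGC, a form of the site bound by E2F factors of the cell cycle, on either strand.
Ezh2, chr6:47595031-47595280, minus strand: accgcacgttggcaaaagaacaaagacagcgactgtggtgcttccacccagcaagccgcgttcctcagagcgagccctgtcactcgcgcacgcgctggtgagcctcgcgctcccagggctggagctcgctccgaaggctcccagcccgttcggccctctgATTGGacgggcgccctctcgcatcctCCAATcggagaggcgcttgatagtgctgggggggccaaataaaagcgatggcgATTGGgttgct
Suz12, chr11:79992856-79993105, plus strand: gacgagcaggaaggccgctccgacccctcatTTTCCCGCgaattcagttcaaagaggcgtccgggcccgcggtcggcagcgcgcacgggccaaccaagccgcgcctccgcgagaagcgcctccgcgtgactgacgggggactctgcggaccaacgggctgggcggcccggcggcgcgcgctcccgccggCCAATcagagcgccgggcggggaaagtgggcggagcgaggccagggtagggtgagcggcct
Kmt5c, chr7:4739877-4740126, plus strand: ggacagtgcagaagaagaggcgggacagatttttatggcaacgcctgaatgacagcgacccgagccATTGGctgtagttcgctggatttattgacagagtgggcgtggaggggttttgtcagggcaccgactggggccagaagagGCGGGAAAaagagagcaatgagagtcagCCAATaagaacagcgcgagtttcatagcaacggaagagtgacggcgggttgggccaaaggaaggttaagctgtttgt
Chd4, chr6:125095731-125095980, plus strand: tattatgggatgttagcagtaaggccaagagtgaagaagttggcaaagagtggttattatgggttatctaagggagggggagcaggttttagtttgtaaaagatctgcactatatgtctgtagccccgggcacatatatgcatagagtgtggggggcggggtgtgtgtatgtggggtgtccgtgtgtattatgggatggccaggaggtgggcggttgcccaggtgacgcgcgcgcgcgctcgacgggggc
Chd5, chr4:152338401-152338650, plus strand: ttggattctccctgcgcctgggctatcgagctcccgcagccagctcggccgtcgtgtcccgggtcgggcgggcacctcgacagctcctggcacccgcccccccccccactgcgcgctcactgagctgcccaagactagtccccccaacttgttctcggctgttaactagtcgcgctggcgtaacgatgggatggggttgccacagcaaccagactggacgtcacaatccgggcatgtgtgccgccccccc

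The Ezh2 stretch held 3 CCAAT boxes and no match to TTTNNCGC, Suz12 held 1 CCAAT box and 1 TTTNNCGC match, Kmt5c held 2 and 1, and neither motif was found upstream of Chd4 or Chd5. The 2 motifs did not overlap in these stretches. RefSeq upstream sequence was matched for 53 of the 62 genes. TTTNNCGC was present upstream of 6 of the 53 (11.3%), against 4.39% of 27025 genes in the table, and CCAAT upstream of 25 (47.2%) against 34.5%. Among the genes that fell, 2 of 9 with sequence held TTTNNCGC and 6 of 9 held CCAAT. Of the 4 that rose, 0 held TTTNNCGC and 2 held CCAAT, and of 38 not called 4 (10.5%) and 16 (42.1%) did. TTTGAA, the CHR element of mitotic genes, was upstream of 9 of the 53 (17.0%) against 16.3%. A match is a description of letters in this window and no evidence of binding.

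The Cbx proteins read methylated histones, as part of Polycomb repressive complex 1 (here Cbx2, Cbx6, Cbx7 and Cbx8) or as HP1 proteins of heterochromatin (Cbx1, Cbx3 and Cbx5). Of 3 tested Polycomb readers 1 fell (33.3%, against 8.64% of all tested genes). Cbx2 levels were 7.29, 7.31, 7.31 and 7.44 in WT and 6.90, 7.15, 7.05 and 6.86 in CKO. The groups did not overlap and Cbx2 fell by 0.35 (SE 0.0781, adjusted p = 0.00833). Cbx8 was lower on every CKO array (7.65 to 7.77) than on every WT array (7.80 to 8.14) without passing (-0.21, adjusted p = 0.103), and Cbx7 was dim and at 0.09. No HP1 gene passed the limma test, while 2 of 3 (Cbx1 and Cbx5) were lower at an unadjusted p under 0.05. Cbx5 levels were 10.11, 10.02, 10.32 and 9.89 in WT and 10.02, 9.92, 9.69 and 9.56 in CKO, which overlap (-0.29, adjusted p = 0.0919; 0.0493 without CKO.1, and 0.0493 to 0.340 under all alternatives). Cbx1 levels were 6.92, 7.18, 7.08 and 7.20 in WT and 6.78, 6.82, 7.10 and 6.63 in CKO, with CKO.3 inside the WT range (-0.26, adjusted p = 0.0914). Without CKO.3 Cbx1 passed (adjusted p = 0.0126, and 0.0126 to 0.446 under all alternatives). Cbx3 was dim (6.82 and 6.77).

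**Figure D2:**
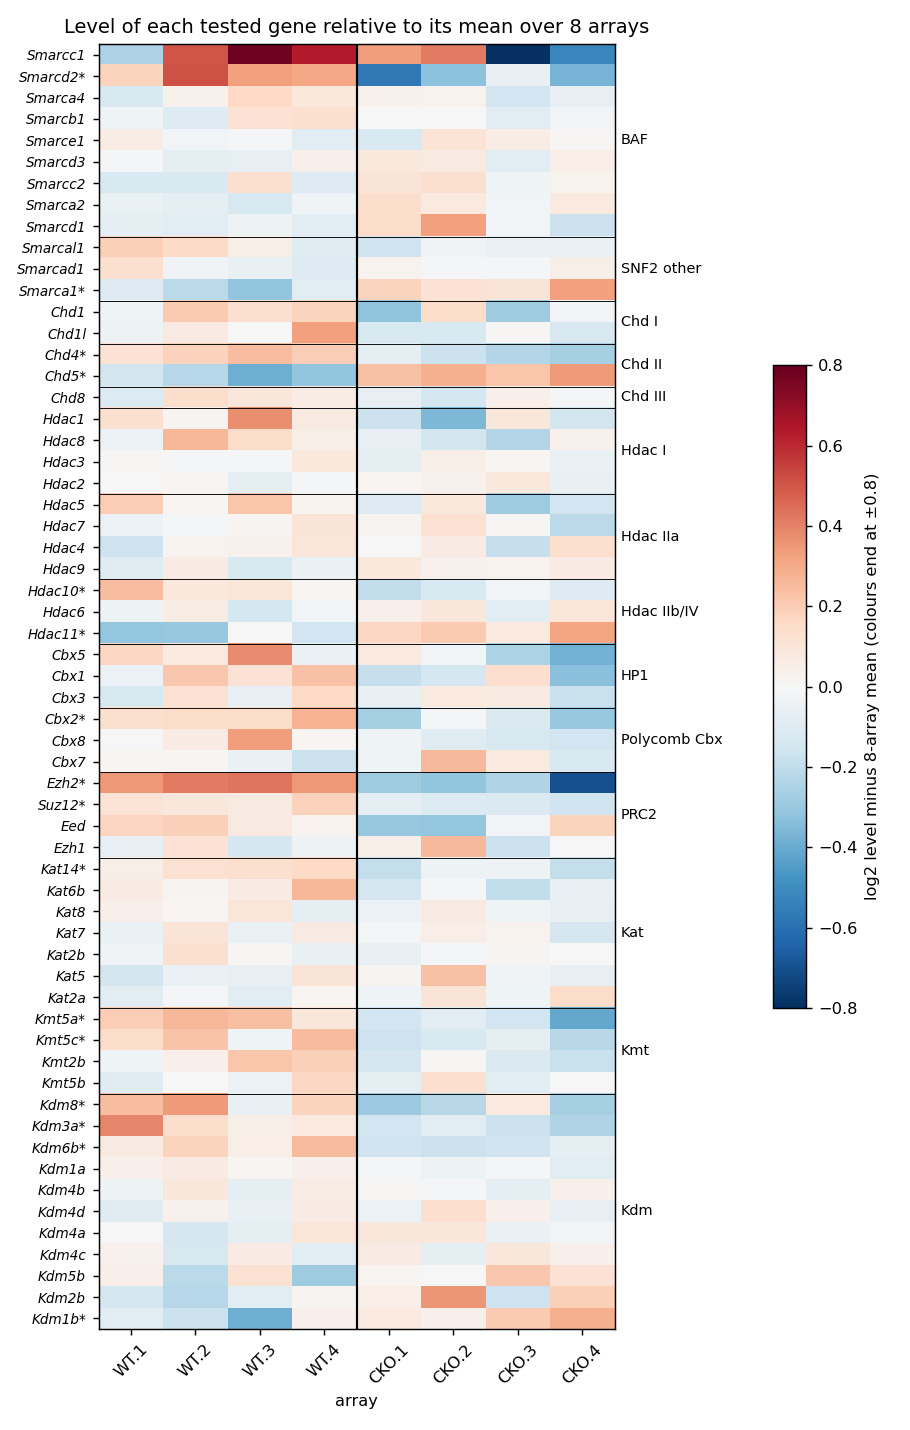
Log2 level of each tested chromatin gene (rows, grouped by family) on each of the 8 arrays (columns), as the difference from its own mean over the arrays. Stars after the names mark the 16 genes past the adjusted threshold. Most rows are pale, and Ezh2, Smarcd2 and Chd5 change colour at the line between WT and CKO, while Smarcc1 is dark on single arrays of both groups.

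In the BAF complex the ATPases and most core subunits showed no call, while a few interchangeable subunits moved in opposite directions. Of 9 tested Smarc genes of BAF 1 fell and 0 rose (11.1% and 0%, against 8.64% and 9.15% of all tested genes). Smarcd2, an alternative of the BAF60 subunit, had levels of 9.92, 10.25, 10.07 and 10.05 in WT against 9.17, 9.41, 9.68 and 9.37 in CKO. All CKO arrays were below all WT arrays, with CKO.3 the nearest to WT. Smarcd2 fell by 0.66 (SE 0.104, 95% interval -0.89 to -0.44, adjusted p = 9.38e-04), or 1.58-fold. Its paralogues Smarcd1 (0.14, adjusted p = 0.343) and Smarcd3 (0.06, 95% interval -0.09 to 0.20) did not pass. The ATPase Smarca4 changed by -0.08 (95% interval -0.25 to 0.09) and the alternative ATPase Smarca2 by 0.14 (95% interval -0.00 to 0.28, adjusted p = 0.178), the latter with higher levels on every CKO array (12.15 to 12.31) than on every WT array (12.04 to 12.14). The scaffold Smarcc2 (0.11), the core Smarcb1 (-0.05) and the HMG-box subunit Smarce1 (0.03) also did not pass.

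The scaffold gene Smarcc1 had the largest difference of the 60 genes and the poorest agreement between arrays. Its levels were 8.49, 9.24, 9.51 and 9.37 in WT and 9.07, 9.15, 6.84 and 8.21 in CKO. CKO.3 and CKO.4 were low, while CKO.1 and CKO.2 lay within the WT range. The change of -0.84 (SE 0.401) did not pass (adjusted p = 0.183), and without CKO.3 it was -0.34 (adjusted p = 0.367, and 0.0836 to 0.606 under all alternatives). Its other probe was dim and changed by -0.21 (adjusted p = 0.260 over all probes).

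A list of 23 further BAF subunits, set with earlier results of these data known, had 13 tested members. Of these 4 fell and 5 rose (median change -0.0056), where 8.64% and 9.15% of all tested genes did. Actl6a, the actin-like subunit of progenitors, had levels of 9.99, 10.17, 9.90 and 10 in WT against 9.32, 9.30, 9.65 and 9.35 in CKO. It fell by 0.61 (SE 0.0900, adjusted p = 6.50e-04, and 5.16e-05 to 0.111 under all alternatives), a call lost with the Xist level as a covariate. Actl6b, which replaces it in neurons, had levels of 10.31, 10.29, 10.45 and 10.53 in WT against 10.68, 10.71, 10.62 and 10.66 in CKO. It rose by 0.27 (SE 0.0717, adjusted p = 0.0189), with the groups of both genes apart. The same held for the next pair: Ss18, the progenitor form, fell by 0.42 (SE 0.0851, adjusted p = 0.00447) and Ss18l1, the neuronal form, rose by 0.25 (SE 0.0637, adjusted p = 0.0173). The next brightest Ss18 probe, at -0.36, did not pass (adjusted p = 0.0615 over all probes). The other Ss18l1 probes rose by 0.34 and 0.40 (adjusted p = 0.0351 and 0.0203 over all probes). Dpf1, a PHD-finger subunit of neuronal BAF, rose by 0.38 (adjusted p = 0.00318, and 9.51e-04 to 0.186 under all alternatives) and lost its call with that covariate, its relative Dpf3 was dim and at -0.06, and Phf10, the progenitor counterpart, was not analysed here. Bcl11a, a zinc-finger factor that associates with BAF, rose by 0.55 (adjusted p = 8.57e-04). Its relative Bcl11b (0.32, adjusted p = 0.0279) also rose, and Bcl7a (-0.28, adjusted p = 0.0134) and Arid2 (-0.29, adjusted p = 0.0425) fell; these 3 were named after their values were seen. The call of Actl6b was lost without WT.1, WT.2 or CKO.2 (adjusted p of 0.0516 to 0.0649, and 0.00650 to 0.327 under all alternatives) and that of Ss18l1 without WT.2 or CKO.1 (adjusted p of 0.0563 to 0.0570, and 0.00715 to 0.253 under all alternatives). Bcl11b kept it only without WT.1, WT.4 or CKO.3 (adjusted p of 0.0634 to 0.0873 otherwise, and 0.00622 to 0.113 under all alternatives), and Arid2 kept it only when WT.3 was left out (adjusted p of 0.0507 to 0.132 otherwise, and 0.0160 to 0.778 under all alternatives). The call of Arid2 was also lost with the mean of its 2 probes. Its other probe, which is dim, changed by 0.04 (adjusted p = 0.789 over all probes). With the Xist covariate the calls of Actl6b, Ss18l1, Bcl11b, Bcl7a and Arid2 were also lost, while those of Ss18 and Bcl11a were kept. Differences between paralogues in their change were not tested.

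**Figure D3:**
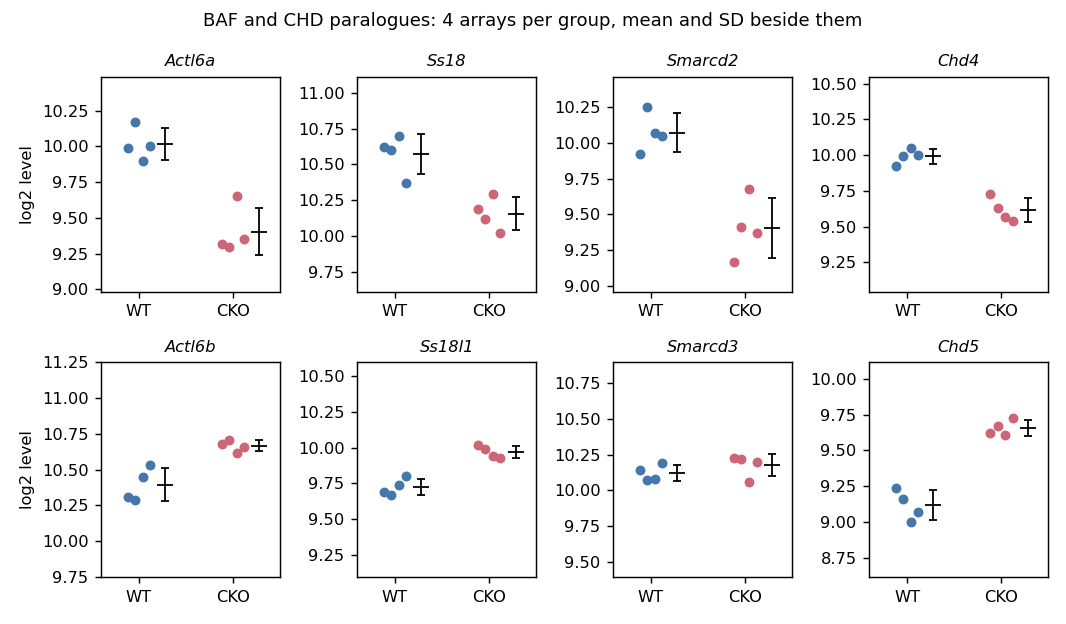
Log2 levels on the 4 WT (blue) and 4 CKO (red) arrays for Actl6a, Ss18, Smarcd2 and Chd4 (top) and for the paralogue of each (bottom), with the group mean and SD as the black bar. Every panel spans 1.5 log2 units. The groups are apart in all panels but that of Smarcd3, lower in CKO in the top row and higher in CKO for Actl6b, Ss18l1 and Chd5.

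The CHD remodellers of the NuRD deacetylase complex moved in opposite directions. Chd4, the broadly expressed ATPase of NuRD, had levels of 9.92, 9.99, 10.05 and 10 in WT against 9.73, 9.63, 9.57 and 9.54 in CKO. It fell by 0.37 (SE 0.0683, adjusted p = 0.00240), with the groups apart. Another Chd4 probe fell by 0.49 (adjusted p = 0.00793 over all probes) and the last, at -0.13, did not pass (adjusted p = 0.374). Chd5, a paralogue found mainly in neurons, had levels of 9.24, 9.16, 9.0 and 9.07 in WT against 9.62, 9.67, 9.61 and 9.73 in CKO. It rose by 0.54 (SE 0.0712, 95% interval 0.38 to 0.69, adjusted p = 3.28e-04), a 1.45-fold difference, and was the largest rise among the 60 genes. Its probe is the only one for Chd5 on the array. The change of Chd5 passed under each of the 21 alternatives (adjusted p from 8.25e-05 to 0.0331).

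The other CHD genes did not pass. Chd1, which acts at active genes, had levels of 7.17, 7.41, 7.33 and 7.38 in WT against 6.88, 7.35, 6.92 and 7.18 in CKO. The groups overlap (-0.24, adjusted p = 0.125, or 0.0328 without CKO.2, and 0.0328 to 0.474 under all alternatives). The other Chd1 probe, of similar brightness, changed by -0.22 (adjusted p = 0.0484 over all probes), and the mean of the 2 probes passed. Chd1l, a remodeller of DNA repair, was dim (6.90, 7.01, 6.94 and 7.27 in WT; 6.82, 6.82, 6.95 and 6.81 in CKO) and at -0.18. Chd8 had levels of 10.35, 10.60, 10.55 and 10.52 in WT against 10.39, 10.32, 10.50 and 10.44 in CKO, a change of -0.09 (95% interval -0.25 to 0.07). Partners of the deacetylase complexes NuRD, Sin3 and CoREST were lower where they passed: of 16 tested, 5 fell and 0 rose (median change -0.22). Among all tested genes 8.64% fell and 9.15% rose. The CoREST gene Rcor2 fell by 0.59 (adjusted p = 5.55e-04), Rcor1 by 0.30 (adjusted p = 0.0165), the Sin3 subunit Sap30 by 0.36 (adjusted p = 0.00827, and 0.00300 to 0.249 under all alternatives, lost with the Xist covariate), and the NuRD subunits Mbd3 by 0.25 (adjusted p = 0.0209) and Mta2 by 0.25 (adjusted p = 0.0309). Mta1 (-0.16), Mta3 (-0.20) and Rbbp7 (-0.20) did not pass. Calls were lost for Rcor1 without WT.2 (adjusted p = 0.0520, and 0.00562 to 0.492 under all alternatives), for Mbd3 without WT.2, CKO.1 or CKO.4 (adjusted p of 0.0596 to 0.0709, and 0.00995 to 0.191 under all alternatives) and for Mta2 without WT.3 or any CKO array but CKO.3 (adjusted p of 0.0504 to 0.0858, and 0.0125 to 0.0858 under all alternatives). With the Xist covariate the calls of Rcor1 (a change of -0.16) and Mbd3 (-0.30) were also lost, while those of Rcor2 and Mta2 were kept. Rbbp7 passed without WT.1 (adjusted p = 0.0390, and 0.0390 to 0.584 under all alternatives). The other Rbbp7 probes changed by -0.08, -0.15 and 0.18 without passing.

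Among the remaining SNF2 relatives Smarca1 rose. Smarca1 encodes an ISWI ATPase that spaces nucleosomes and is known from differentiating neurons. Its levels were 10.42, 10.31, 10.21 and 10.44 in WT and 10.70, 10.64, 10.63 and 10.85 in CKO, with the groups apart, and it rose by 0.36 (SE 0.0775, adjusted p = 0.00684). The gene lies on the X chromosome, and WT.3, the WT array with low Xist, had its lowest level. Smarcad1 (0.03) and Smarcal1 (-0.15) did not pass.

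Of the 11 deacetylase genes tested, Hdac11 rose and Hdac10 fell, where 9.15% and 8.64% of all tested genes did. Hdac11, the lone class IV enzyme, had levels of 8.21, 8.22, 8.52 and 8.37 in WT against 8.69, 8.73, 8.60 and 8.84 in CKO. The groups were apart by a small margin, WT.3 being nearest to CKO, and Hdac11 rose by 0.39 (SE 0.0841, adjusted p = 0.00675). Hdac10, a class IIb enzyme that acts on polyamines, had levels of 7.73, 7.57, 7.58 and 7.5 in WT against 7.29, 7.36, 7.46 and 7.38 in CKO. It fell by 0.22 (SE 0.0717, adjusted p = 0.0482), but the call was kept when WT.4 or CKO.3 was left out and lost without any other (adjusted p of 0.0767 to 0.141, and 0.0189 to 0.381 under all alternatives).

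No class I or class IIa deacetylase passed the limma test, though at an unadjusted p under 0.05 Hdac1 and Hdac8 of class I and Hdac5 of class IIa were lower. Hdac2 had levels of 13.33, 13.34, 13.25 and 13.31 in WT against 13.34, 13.36, 13.41 and 13.27 in CKO, and its change of 0.04 had a 95% interval of -0.10 to 0.17. Hdac3 read 11.30, 11.28, 11.28 and 11.38 in WT against 11.22, 11.34, 11.31 and 11.24 in CKO (-0.03, 95% interval -0.17 to 0.11). Hdac1, the paralogue of Hdac2 in the same complexes, had levels of 9.27, 9.16, 9.51 and 9.21 in WT against 8.97, 8.78, 9.23 and 8.99 in CKO. Only CKO.3 reached the WT range, and Hdac1 missed the threshold (-0.30, adjusted p = 0.0618), passing without CKO.3 (adjusted p = 0.0132, and 0.0132 to 0.167 under all alternatives). In class IIa, Hdac5 read 9.83, 9.65, 9.86 and 9.66 in WT against 9.53, 9.72, 9.35 and 9.48 in CKO (-0.23, adjusted p = 0.0912; 0.0358 without CKO.2, and 0.0358 to 0.335 under all alternatives). Hdac4 read 8.08, 8.27, 8.28 and 8.34 in WT against 8.24, 8.31, 8.06 and 8.37 in CKO, a change of 0.0032. Hdac7 (-0.03), Hdac9 (0.11, dim), Hdac8 (-0.20) and Hdac6 (0.07) did not pass. Of 6 tested sirtuins, deacetylases of another family, 0 rose and 0 fell by the limma test, also at an unadjusted p under 0.05, with changes between -0.16 and 0.12.

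The methyltransferases of histone H4 lysine 20 fell in part. Kmt5a adds the first methyl group at that lysine and its protein peaks in mitosis. Its levels were 9.16, 9.23, 9.20 and 9.05 in WT and 8.81, 8.88, 8.81 and 8.55 in CKO, with no overlap. Kmt5a fell by 0.40 (SE 0.0822, adjusted p = 0.00498). The next brightest of its 4 probes also fell, by 0.34 (adjusted p = 0.0224 over all probes), while the remaining probes, at -0.21 (adjusted p = 0.135) and -0.15 (adjusted p = 0.288), did not pass. Kmt5c, which adds further methyl groups, had levels of 10.22, 10.30, 10.04 and 10.33 in WT against 9.91, 9.95, 10 and 9.85 in CKO. The groups came closest at WT.3 and CKO.3, and Kmt5c fell by 0.30 (SE 0.0768, adjusted p = 0.0169), a call lost without WT.2 or CKO.4 (adjusted p of 0.0555 to 0.0568, and 0.00424 to 0.597 under all alternatives). Its paralogue Kmt5b changed by -0.02 (95% interval -0.19 to 0.15), and Kmt2b, a histone H3 lysine 4 methyltransferase, by -0.21 (adjusted p = 0.0859). Of 28 other tested methyltransferase genes and partners 2 fell and 1 rose, where 8.64% and 9.15% of all tested genes did. Nsd1, a histone H3 lysine 36 methyltransferase, fell by 0.60 (adjusted p = 0.00540, and 8.83e-04 to 0.138 under all alternatives), a call lost with the Xist covariate, and its other probe changed by -0.06 (adjusted p = 0.690 over all probes). The methyltransferase gene Smyd3 rose by 0.38 (adjusted p = 0.00145). The adaptor Wdr5 fell by 0.23 (adjusted p = 0.0316), a call that held only when WT.1 was the array left out (adjusted p of 0.05 to 0.101 otherwise, and 0.0165 to 0.265 under all alternatives). With the Xist covariate the call of Wdr5 was also lost, while that of Smyd3 was kept.

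Among the 7 acetyltransferase genes tested 1 fell (14.3%, against 8.64% of all tested genes). Kat14, a subunit of the ATAC complex, had levels of 10.47, 10.54, 10.55 and 10.58 in WT against 10.23, 10.38, 10.38 and 10.23 in CKO. It fell by 0.23 (SE 0.0679, adjusted p = 0.0333), and the call was lost without WT.2, WT.3, WT.4, CKO.1 or CKO.4 (adjusted p of 0.0654 to 0.104, and 0.0208 to 0.273 under all alternatives). As the mean of its 2 probes it changed by -0.13 (adjusted p = 0.200). Kat6b was lower on every CKO array (10.63 to 10.81) than on every WT array (10.85 to 11.09) and missed the threshold (-0.21, adjusted p = 0.0703). Kat2a (0.09), Kat2b (-0.03), Kat5 (0.08), Kat7 (-0.03) and Kat8 (-0.03) did not pass. Of 14 further tested acetyltransferase genes and partners 3 fell and 0 rose, where 8.64% and 9.15% of all tested genes did. Hat1 fell by 0.32 (adjusted p = 0.0266), Ing4 by 0.29 (adjusted p = 0.0281) and Ing3 by 0.26 (adjusted p = 0.0343). These 3 calls were fragile: Hat1 kept it only without WT.4 or CKO.3 (0.0524 to 0.0825 otherwise, and 0.00170 to 0.170 under all alternatives), Ing4 lost it without WT.2, WT.3, WT.4, CKO.3 or CKO.4 (adjusted p of 0.0501 to 0.0872, and 0.0136 to 0.142 under all alternatives) and Ing3 without WT.2, WT.3, WT.4, CKO.1, CKO.3 or CKO.4 (adjusted p of 0.0518 to 0.1, and 0.0148 to 0.219 under all alternatives).

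The demethylases moved in both directions, with 3 of 11 tested lower and 1 higher (27.3% and 9.09%, against 8.64% and 9.15% of all tested genes). Kdm3a removes methyl groups from lysine 9 of histone H3. Its levels were 10.08, 9.83, 9.74 and 9.77 in WT and 9.54, 9.60, 9.52 and 9.45 in CKO, with no overlap, and it fell by 0.33 (SE 0.0810, adjusted p = 0.0137), while its other probes, at -0.23 (adjusted p = 0.105 over all probes) and -0.25 (adjusted p = 0.0588), did not pass. Kdm6b, which removes the mark that PRC2 sets, had levels of 11.26, 11.37, 11.24 and 11.44 in WT against 11.03, 11.02, 11.03 and 11.12 in CKO. It fell by 0.28 (SE 0.0687, adjusted p = 0.0134), with no overlap. As the mean of its 2 probes Kdm6b changed by -0.21 (adjusted p = 0.0590, and 0.00722 to 0.341 under all alternatives). Kdm8, a JmjC protein needed for cell cycle progression in some cells, had levels of 7.90, 7.99, 7.59 and 7.83 in WT against 7.36, 7.43, 7.73 and 7.39 in CKO. CKO.3 lay above WT.3, so the groups overlap. Kdm8 fell by 0.35 (SE 0.102, adjusted p = 0.0315), a call kept when WT.3 or CKO.3 was left out and lost without any other (adjusted p of 0.0623 to 0.104, and 8.28e-04 to 0.762 under all alternatives). It was also lost as the mean of its 2 probes, the other of which changed by -0.08 (adjusted p = 0.621 over all probes). Kdm1b, a flavin-dependent demethylase of histone H3 lysine 4, had levels of 9.70, 9.61, 9.39 and 9.82 in WT against 9.86, 9.82, 9.99 and 10.07 in CKO, where WT.4 and CKO.2 meet. It rose by 0.30 (SE 0.0936, adjusted p = 0.0390), a call kept when WT.4 or CKO.2 was left out and lost without any other (adjusted p of 0.0559 to 0.115, and 0.0205 to 0.312 under all alternatives), and its other 3 probes changed by 0.07, 0.14 and -0.07 without passing.

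The 7 demethylase genes that did not pass included bright ones. Kdm1a, the CoREST demethylase, was at 11.90 in WT and 11.82 in CKO, a change of -0.08 (95% interval -0.21 to 0.05) that left the groups narrowly apart. Kdm4b, a demethylase of histone H3 lysine 9, was at 11.10 and 11.08 (-0.02, 95% interval -0.16 to 0.13). Kdm4a (0.05), Kdm4c (0.06) and Kdm4d (0.03, dim) stayed near 0, and Kdm5b was at 0.17. Kdm2b was at 0.22 (adjusted p = 0.174) and passed without CKO.3 (adjusted p = 0.0271, and 0.0271 to 0.587 under all alternatives). Of 7 further tested demethylase genes 0 fell and 0 rose by the limma test, also at an unadjusted p under 0.05, with changes between -0.11 and 0.18.

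**Figure D4:**
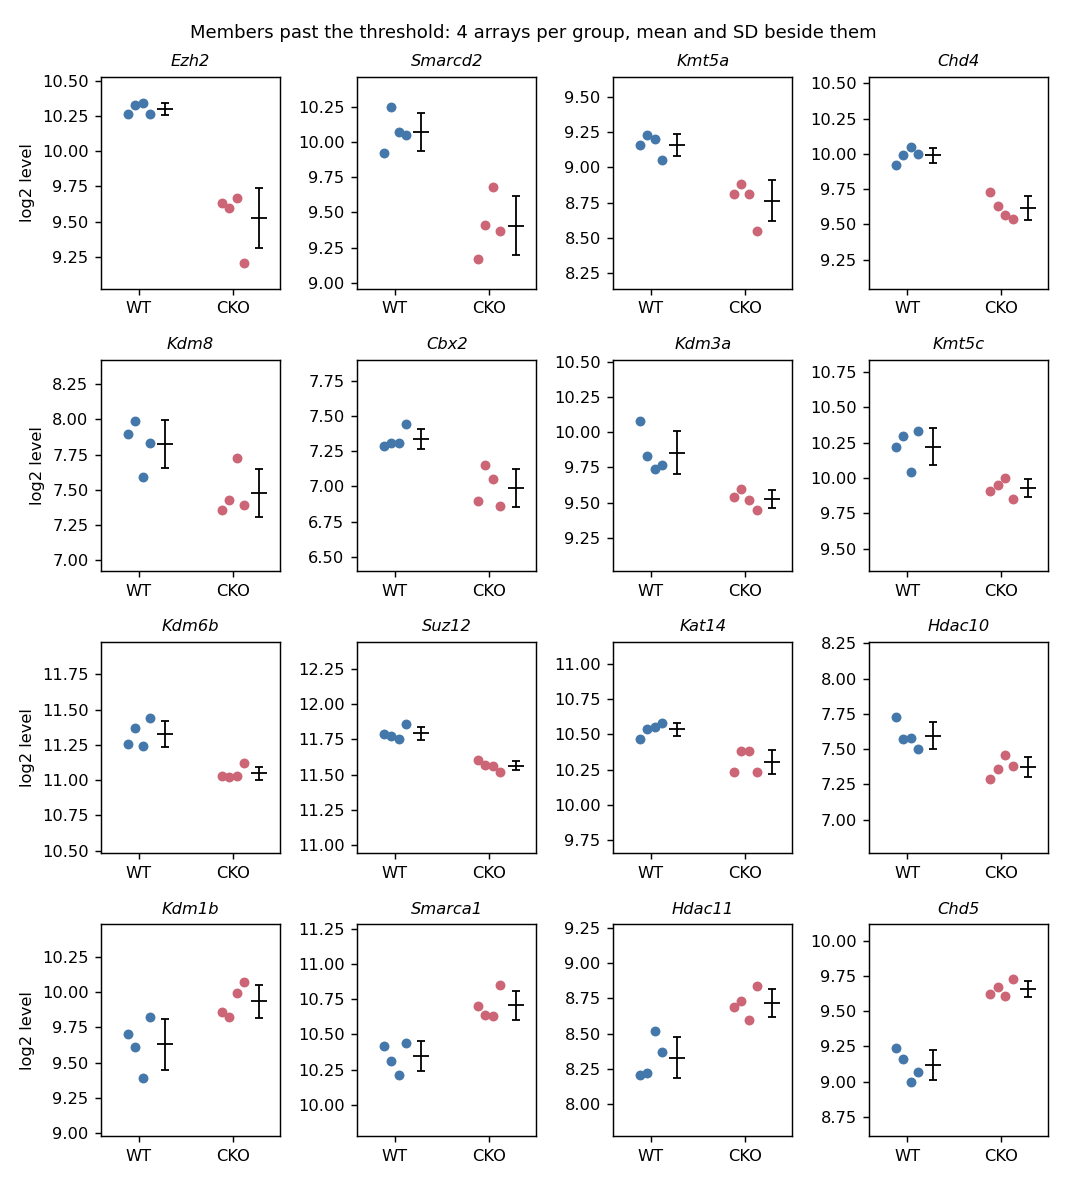
Log2 levels on the 4 WT (blue) and 4 CKO (red) arrays for each of the 16 chromatin genes past the adjusted threshold, ordered from the largest fall (Ezh2) to the largest rise (Chd5), with the group mean and SD as the black bar. Every panel spans 1.5 log2 units. The groups meet or overlap for Kdm8 and Kdm1b and are apart in the other panels.

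Genes of nucleosome assembly and other remodellers outside these families also included genes that fell. In a list of remodellers, histone chaperones and readers, 11 of 26 tested genes fell and 0 rose (median change -0.22). The shares of all tested genes were 8.64% and 9.15%, also for the list of Polycomb partners below. Lbr, the lamin B receptor that binds HP1 proteins, fell by 0.97 (adjusted p = 3.47e-04), the recombination ATPase Rad54l by 0.82 (adjusted p = 2.56e-04), and Chaf1b and Chaf1a, which place histones on newly copied DNA, by 0.63 (adjusted p = 2.92e-04) and 0.61 (adjusted p = 7.66e-04). Hells, a remodeller of DNA methylation, was near the brightness filter in both groups (6.28 and 6.34) and did not pass. Of 20 tested Polycomb partners 2 fell and 0 rose: Pcgf5, a subunit of Polycomb complex 1, by 0.51 (adjusted p = 0.00125, and 2.43e-04 to 0.0857 under all alternatives, lost with the Xist covariate), and Phc2 by 0.37 (adjusted p = 0.0159; 0.0532 without WT.2, and 0.00421 to 0.431 under all alternatives). The call of Phc2 was also lost with that covariate. In total, 136 of the 207 listed symbols were on the array.

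No label gives the sex of the animals. Xist was high on 3 WT arrays and low on WT.3 and all CKO arrays, while the Y-linked gene Eif2s3y read 8.97 on WT.3 and 9.26 to 9.59 in CKO against 5.94 to 6.05 on the other WT arrays, so sex as read from these genes and genotype overlap in part. With the Xist level as a covariate 3 of the 60 genes fell (Ezh2, Chd4 and Cbx8) and 3 rose (Chd5, Smarca1 and Kdm1b), against 12 and 4 without it, while the share of all tested genes called went from 17.8% to 6.13%. Cbx8 changed by -0.45 in that fit (adjusted p = 0.0277, and 0.0277 to 0.290 under all alternatives). The 11 calls lost differed in how far the change itself moved. Smarcd2 changed by -0.66 in that fit (adjusted p = 0.0529), Kmt5a by -0.44 (adjusted p = 0.0810), Cbx2 by -0.33 (adjusted p = 0.162), Kat14 by -0.25 (adjusted p = 0.205), Suz12 by -0.19 (adjusted p = 0.286), Kdm6b by -0.20 (adjusted p = 0.303) and Hdac10 by -0.19 (adjusted p = 0.381). The other 4 moved further, from -0.33 to -0.20 for Kdm3a, from -0.30 to -0.11 for Kmt5c, from -0.35 to -0.09 for Kdm8 and from 0.39 to 0.18 for Hdac11. WT.3, which is among the arrays that made these calls, read 0.81 above the CKO mean for Ezh2, 0.66 above it for Smarcd2, 0.43 above it for Chd4 and 0.11 above it for Kmt5c and Kdm8. Outside the families, 9 of 26 named calls held with the covariate (Ss18, Bcl11a, Mta2, Rcor2, Smyd3, Lbr, Rad54l, Chaf1a and Chaf1b) and 17 did not.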

How the data were processed

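Cerebellum RNA of 4 WT and 4 CKO embryos was hybridised to BeadArrays. One deposited table gives linear intensity values, which the authors exported from BeadStudio per the labels. How background was handled there is not stated. Its array medians differ, so it was taken as not normalized. The other deposited table has the authors' log2 values, which equal the log2 of the quantile-normalized intensities to within 0.005. Of 25697 probes 23978 had 1 gene symbol in the platform annotation, 0 had several and 1719 had none.

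Intensities were corrected by normexp (offset 50), quantile-normalized and fitted with limma 3.58.1 in R 4.3.3 (lmFit, eBayes, genotype only, two-sided). Genes were tested where the brightest probe's mean exceeded the lower quartile of all probes, a log2 level of 6.26, with Benjamini-Hochberg adjustment over 12912 genes, at a threshold of 0.05. All adjusted p-values are from limma. The offset pulls changes of dim genes towards 0. Levels are not compared between probes. The fit was tested on simulated data with 200 changed genes. It recovered 75% of them at a log2 change of 0.5 and 97% at 1, with 15 false calls each. Smaller changes, as most of those here are, were not simulated. The number of arrays limits the precision.

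The genes and lists were chosen with earlier results of these data known. Named were the deleted gene, every tested chromatin gene, up to 4 called genes per further list, and a fixed set of BAF and NuRD subunits. Array values are given for the chromatin genes called and for the 2 brightest of families without a call. Some further genes, among them Hdac1 and Smarcc1, have array values outside that rule. Replicate numbers were not treated as pairs in the main fit. Deviations of same-numbered arrays correlated between -0.05 and 0.15, highest for replicate 3, which cannot exclude a pairing. Alternatives covered background, normalization, the authors' log2 values, filters, probes, variance, weights, a replicate block, Xist and leaving out arrays. Figures were drawn with matplotlib 3.10.9.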

Additional observations from a re-analysis of the deposited data

Results flagged for a closer look

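In 184 groups of 4 arrays, over 92 named genes, 11 (5.98%) had an array whose gap to the nearest of the others, as a share of the group's range, passed the 95% critical value of Dixon's test. Chance flags about 1 in 20. Among genes called, Ezh2 read 9.21 in CKO.4 against 9.60 to 9.67 on the other CKO arrays, Cbx2 read 7.44 in WT.4 against 7.29 to 7.31, and Kdm6b read 11.12 in CKO.4 against 11.02 to 11.03. Of the genes not called, Chd1l read 6.95 in CKO.3 against 6.81 to 6.82, Kat6b read 11.09 in WT.4 against 10.85 to 10.89, Smarcal1 read 8.49 in CKO.1 against 8.60 to 8.62, Smarcc2 read 10.21 in WT.3 against 9.96 to 9.98, and Smarcd3 read 10.06 in CKO.3 against 10.20 to 10.23. Outside the chromatin families, Actl6a read 9.65 in CKO.3 against 9.30 to 9.35, Mta2 read 9.64 in WT.3 against 9.40 to 9.42, and Rcor1 read 8.28 in WT.3 against 8.46 on the others.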

How the results depend on the processing

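Over 21 alternatives the 16 called chromatin genes kept their direction in all 336 values, and 269 of these also passed the threshold. Of the 67 that did not pass, 11 came with the Xist covariate and 15 from the arrays with low Xist alone. Leaving out each array in turn, 8 to 14 chromatin genes fell and 3 to 4 rose, with medians of -0.0666 to -0.0351, while over all tested genes 779 (without CKO.4) to 1299 rose and 796 to 1267 fell. With the Xist covariate 362 genes rose and 430 fell in all, and 3 of the chromatin genes fell. An alternative chosen after seeing the data compared WT.3 alone with the 4 CKO arrays, the lone array being assumed to vary like the others. There 131 genes rose and 166 fell, with 1 chromatin gene (Chd5) higher and 0 lower by limma. The median change of the chromatin genes was -0.0642 in that fit, against 0.00526 over all tested genes. With a single WT array, these counts cannot decide whether the other calls hold among arrays with low Xist. Median scaling moved the median change of the chromatin genes to -0.0867, against -0.00597 over all tested genes, with 16 lower and 3 higher; all tested genes then split into 792 higher and 1337 lower, against 1182 and 1115. The cause was not tested. With the replicate block 10 fell and 4 rose, 13 of the 16 calls being shared. Cbx6 and Chd6 were below the brightness filter, and their change was not tested.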
